A study of Mus musculus with 12 samples.

Results

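Mir-129 is a brain-enriched microRNA (miRNA) made from a pair of genes, Mir129-1 and Mir129-2, and it was measured here as 2 rows of a table of 513 miRNA arms. An arm is the 5p or the 3p strand cut from an miRNA hairpin. The rows were chosen by name alone, as every row whose first name is Mir-129 or one of its paralogues, and each of the 2 pools both genes. One row holds the 5p arm and the other the 3p arm. Small RNA came from the hippocampus of 12 male, wild-type C57BL/6J mice, an inbred laboratory strain. The exercised lineage is 6 grandsons, in a patrilineal design, of mice that had exercised, and the sedentary lineage is 6 grandsons of sedentary mice. The labels give no exercise of the mice themselves or of their fathers, and no age.

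In neurons, the 5p arm of Mir-129 is known to repress Kcna1, which encodes a dendritic potassium channel, when mTOR signalling is active. It is also known from synaptic downscaling, the weakening of excitatory synapses after prolonged activity, where it acts on Atp2b4, a calcium pump gene, and Dcx, a gene of the neuronal cytoskeleton. The 3p arm has a different seed, the short stretch near the 5′ end with which an miRNA pairs to its targets, and is known to promote the growth of cilia by repressing Ccp110, a centriole gene.

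The mature sequences are shown because the row names do not show which molecules were pooled. They come from RefSeq, on GRCm38, the build that mm10 denotes, and run 5′ to 3′ with the seed, bases 2 to 8, in capitals. The table holds the 5p arm for both genes and the 3p arm for Mir129-2. The last line is the stretch of the Mir129-1 hairpin closest to that 3p arm, found by ungapped comparison.
miR-129-5p: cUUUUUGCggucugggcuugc
miR-129-2-3p: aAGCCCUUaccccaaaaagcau
Mir129-1 stretch: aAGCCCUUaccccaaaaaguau

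The 5p arm, of 21 bases, is identical in both genes. The 3p stretches, of 22 bases, are identical at 21 positions and differ by C20U, counted from 1 at the 5′ end, with the base of Mir129-2 first. That difference lies outside the seed, so the Mir129-1 stretch holds the same bases AGCCCUU. The stretch was chosen for its likeness, so it does not show where a 3p arm cut from Mir129-1 starts. Among 1679 mature names in the RefSeq table, the 5p seed UUUUUGC and the 3p seed AGCCCUU each occurred under 1 name, so no other listed mouse miRNA shared either. The hairpins show where the arms, and the Mir129-1 stretch, lie, in capitals.
Mir129-1: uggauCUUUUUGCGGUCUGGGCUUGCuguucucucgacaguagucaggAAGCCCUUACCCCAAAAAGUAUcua
Mir129-2: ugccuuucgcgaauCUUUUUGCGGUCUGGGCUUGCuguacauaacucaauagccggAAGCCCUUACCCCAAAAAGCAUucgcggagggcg

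Between the arms lie 22 bases in Mir129-1 and 21 in Mir129-2, and in the latter the terminal loop sequence is different. Mir129-1 lies at chr6:29022619-29022691 on the plus strand, within an exon of at least 1 transcript of the long noncoding RNA gene Gm3294. Mir129-2 lies at chr2:94241364-94241453 on the minus strand, in an intron of the long noncoding RNA gene Mir670hg. The annotation also places Mir129b on the opposite strand of Mir129-2, which was not analysed here. Row names call the genes P1 and P2 without saying which is which, and no value below depends on that, since both rows hold both.

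Libraries held 6862623 to 10219856 reads on the 513 arms. Levels are given as normalized counts, in which the reads on an arm have been scaled by 1 size factor for each library. Neuronal miRNAs were abundant in every library, with the summed Mir-9, Mir-124 and Mir-128 arms between 1861684 and 3204237 normalized counts in exercised-lineage libraries and between 2402465 and 3040997 in sedentary-lineage libraries. The submitters' codes give the libraries 4 stems of 3 libraries each, R31 (libraries 1 to 3) and R41 (4 to 6) in the exercised and S11 and S41 likewise in the sedentary lineage. The labels do not say what a stem stands for, and each stem lies within 1 lineage, so stem and lineage cannot be told apart within a stem.

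The 5p arm was the dominant product of Mir-129, with both genes pooled, in every library. The row names put an asterisk, their mark for a passenger arm, on the 3p arm of P1 only. Arm balance cannot be told apart from the mix of the genes here or below. It ranked 29th of the 513 arms by mean level, with 59552 normalized counts, and the 3p arm ranked 114th with 2814. Both arms are of like length and were counted per read, so their levels can be set side by side, although ligation during library preparation favours some ends over others. The 5p value was 13.2 to 27.5 times the 3p value, and it was the higher in 12 of 12 libraries. The mean log2 ratio was 4.42 (two-sided exact sign-flip p = 0.000488, the smallest that 12 libraries allow). Among the 155 pairs of tested rows whose 5p and 3p names cover the same genes, 86 had more 5p and 69 more 3p. The median size of the log2 ratio was 3.58, and 41.9% of the pairs were more lopsided than Mir-129. The dominance of 1 arm was thus near the middle of the range for these pairs only. Left out were miRNAs with an arm below a mean of 10 and those whose arms are pooled differently, such as Mir-128 and Mir-218. Strongly lopsided miRNAs can therefore be missing from this range.

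The lineage means of the 5p arm differed by less than the spread between mice. In the exercised lineage it had a lowest value of 41903, a median of 61165 and a highest of 70822 normalized counts. In the sedentary lineage it had 50565, 55582 and 76931. The groups overlapped over most of their range. Library 1 of the exercised lineage was the lowest of all 12 and library 3 of the sedentary lineage the highest. The means were 59038 ± 9563 and 60066 ± 10618 (SD, n = 6 each), a log2 difference, exercised minus sedentary, of -0.025 on the scale of log2(value + 1), with a standard error of 0.14 and a 95% confidence interval of -0.32 to 0.27 (limma adjusted p = 0.974). On the linear scale that interval runs from 0.802-fold to 1.21-fold. The direction was not fixed, since the difference was 0.070 without library 1 of the exercised lineage. It was 0.062 when libraries were scaled by their totals and 0.059 by their upper quartiles, but these scalings also moved the median of all tested arms, from -0.0013 to 0.085 and 0.083. Relative to that median the 5p arm stood at -0.024, -0.023 and -0.023.

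The 3p arm had the higher mean in the exercised lineage, without passing the test. Its lowest, median and highest values there were 2340, 2919 and 4666 normalized counts. In the sedentary lineage they were 2128, 2377 and 3151. The groups overlapped, with 5 of 6 exercised-lineage libraries above the sedentary median and 2 above the sedentary maximum. Means were 3128 ± 813 against 2501 ± 409 (SD, n = 6 each), a log2 difference of 0.30 (SE 0.16, 95% confidence interval -0.04 to 0.64, limma adjusted p = 0.532). The fold was 1.23, with bounds of 0.976 and 1.56. Library 6 of the exercised lineage, at 4666, stood well above the next value of 3221, and without it the difference was 0.18 (limma adjusted p = 0.712). Over all alternatives the adjusted p of the 3p arm ran from 0.410 to 0.765.

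**Figure D1:**
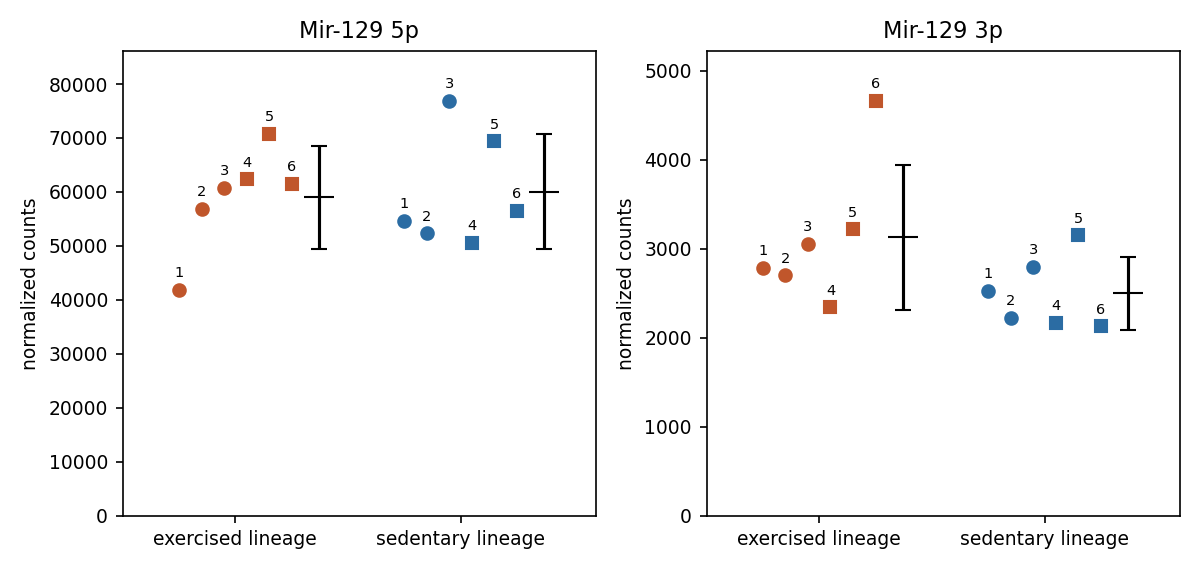
Normalized counts of the Mir-129 5p (left) and 3p (right) arm in each library, by lineage. Points are single mice labelled with their number, circles mark the stems R31 and S11 and squares R41 and S41, and bars give the mean ± SD of 6 mice. The 5p values of the lineages overlap broadly, and the 3p value of library 6 of the exercised lineage, 4666, is the highest of the 12.

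Of the 2 Mir-129 arms, 0 were called between the lineages at a limma adjusted p below 0.05. This was also the case for 0% of the 474 arms tested, those with a mean of at least 10. At an unadjusted p below 0.05 there were again 0 of the 2, against 34 of the 474 (7.17%). The 3p arm, at an unadjusted limma p of 0.0752, ranked 56th of the 474 and the 5p arm, at 0.858, 416th. Values that did not overlap between the lineages were found for 0% of the tested arms. Counting error was small beside the spread between mice. From the recovered reads it amounted to at most 0.472% of the 5p value and 2.42% of the 3p value, while the coefficients of variation within a lineage were 16.2% and 17.7% for 5p and 26.0% and 16.4% for 3p.

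The spread between mice of both arms lay within the range of other arms. The SD of log2 values within a lineage was 0.25 for 5p and 0.29 for 3p. Of all tested arms, 39.5% varied less than the 5p arm and 51.3% less than the 3p arm. For the 169 tested arms with a mean of at least 1000, the median SD was 0.23. Of these more abundant arms, 58.6% varied less than the 5p arm and 73.4% less than the 3p arm.

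**Figure D2:**
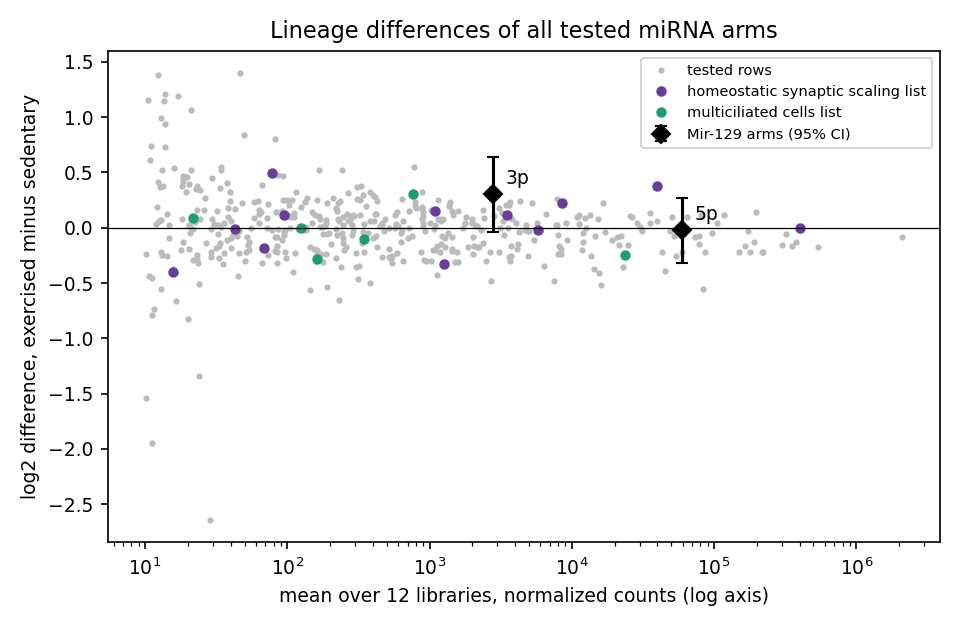
Log2 difference between the lineages (vertical axis) against mean normalized counts over 12 libraries on a log axis (horizontal) for the 474 tested arms. Diamonds are the Mir-129 arms with 95% confidence intervals, which both include 0, and coloured points are the arms of the synaptic scaling and multiciliated cell lists.

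As a share of all miRNA counts, both arms together made up between 0.690% and 0.859% in the exercised lineage, with a median of 0.768%. In the sedentary lineage they made up between 0.642% and 0.876%, with a median of 0.660%. The widest exact (Clopper-Pearson) 95% interval for a single library was that of sedentary library 3, 0.867% to 0.880%, and such intervals cover counting error only. Sedentary libraries 3 and 5 were high, and the other 4 lay below every exercised-lineage library. The means were 0.762% ± 0.0645 and 0.727% ± 0.115 (SD, n = 6 each), a difference of 0.0353 percentage points (two-sided exact permutation p = 0.515).

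The balance of the arms within a library does not depend on scaling between libraries. The 3p arm made up 3.62% to 7.05% of Mir-129 counts in the exercised lineage, with a median of 4.66%. In the sedentary lineage it made up 3.51% to 4.42%, with a median of 4.10%. The high values came from 2 exercised-lineage libraries, library 6 with 7.05% (exact 95% interval 6.85% to 7.25%) and library 1 with 6.23% (6.02% to 6.45%). In normalized counts, the 3p arm of library 6 was high and its 5p arm within 1 SD of the lineage mean. Library 1 had a low 5p arm, and its 3p arm was within 1 SD of the lineage mean. Which arm stands out does depend on scaling between libraries. As a share of counts, the 5p arm of library 1 was the lowest of its lineage at 0.649%. The sedentary median was lower, at 0.635%. The 3p arm of library 1, at 0.0431% of counts, was above the exercised-lineage mean of 0.0389%. Library 4 of the exercised lineage had the lowest 3p value of its group and the lowest share, 3.62%.

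**Figure D3:**
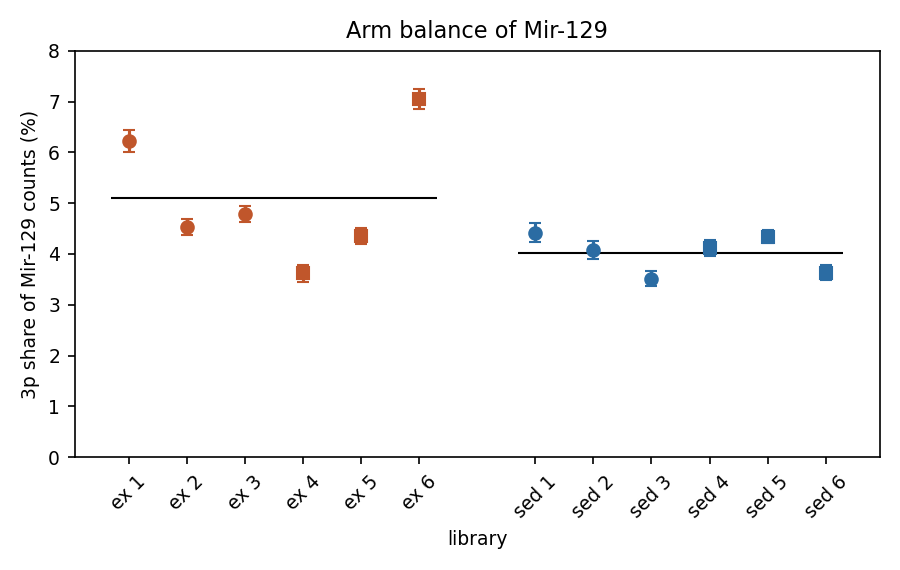
Share of the 3p arm among all Mir-129 counts (vertical axis, percent) in each of the 12 libraries (ex, exercised lineage, sed, sedentary lineage). Error bars are exact 95% binomial intervals, which cover counting error only, and lines are lineage means. Libraries 6 and 1 of the exercised lineage, at 7.05% and 6.23%, lie above all others.

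The mean log2 ratio of 5p to 3p was 4.26 ± 0.37 for the exercised lineage and 4.58 ± 0.14 for the sedentary one (SD, n = 6 each). The difference of -0.33 did not pass the two-sided exact permutation test (p = 0.0714, and 0.143 adjusted over this ratio and the share of counts). In a limma fit over all 155 arm pairs, its 95% confidence interval was -0.69 to 0.04 (adjusted p = 0.526), with 0% of the pairs called and 6.45% at an unadjusted p below 0.05. Without library 6 of the exercised lineage the difference was -0.22 (exact permutation p = 0.143), and without library 4 it was -0.42 (exact permutation p = 0.00866). Without the R41 libraries, 4 to 6 together, it was -0.38 (exact permutation p = 0.0238, the smallest that this split allows). These last 2 p-values are unadjusted, and no other alternative gave one below 0.05. Whether the unadjusted p fell below 0.05 thus depended on which exercised-lineage libraries entered, and no call is made from these alternatives.

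Ordered by stem, the 5p arm was highest in R41 with 64891 ± 5150 normalized counts, followed by S11 with 61307 ± 13581, S41 with 58825 ± 9633 and R31 with 53185 ± 9965 (SD, n = 3 each). Each neighbour in this order differed by less than the larger of the SDs. The 3p arm was also highest in R41, with 3409 ± 1174, ahead of R31 with 2846 ± 185, S11 with 2518 ± 288 and S41 with 2484 ± 579. The values of neighbouring stems overlapped for the 3p arm too. In the exercised lineage the 5p arm was lower in all 3 R31 libraries than in all 3 R41 libraries, a log2 difference of -0.30 (two-sided exact permutation p = 0.1, the smallest that 3 against 3 allow, and 0.600 adjusted over 6 such tests). The other 5 differences between stems of a lineage had exact permutation p from 0.600 to 0.900.

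The arms were not shown to vary together over the 12 libraries. Pearson's r of log2 values was 0.37 (permutation p = 0.236) and Spearman's rho 0.60 (permutation p = 0.0413). Adjusted over 3 relations the p-values were 0.354 and 0.0619. Without the 2 libraries farthest from the median in 5p, exercised library 1 and sedentary library 3, r was 0.60 (permutation p = 0.0627). There rho was 0.73 (permutation p = 0.0195, unadjusted). Leaving out exercised library 6 gave r = 0.47 (permutation p = 0.146) and rho = 0.62 (permutation p = 0.0485, unadjusted). Centred on the lineage r was 0.46 and rho 0.48 (permutation p = 0.135 and 0.115). Centred on the stem they were 0.39 and 0.44 (permutation p = 0.217 and 0.155). Within the exercised lineage r was 0.24 (n = 6, exact permutation p = 0.586) and within the sedentary lineage 0.82 (n = 6, exact permutation p = 0.05). That the lineages differ in this was not tested.

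The other 2 relations set each arm against the total of normalized counts of a library. For 5p, r was 0.70 (permutation p = 0.0135, adjusted 0.0403) and rho 0.62 (permutation p = 0.0341, adjusted 0.0619). Without the same 2 libraries, the extremes of 5p itself, r was 0.19 (permutation p = 0.589) and rho 0.38 (permutation p = 0.278). The value of r over all 12 libraries thus depended on them, although leaving out extremes also narrows the range of 5p. Centred on the lineage r was 0.72 (permutation p = 0.00914) and rho 0.73 (permutation p = 0.00824). Centred on the stem they were 0.62 and 0.63 (permutation p = 0.0325 and 0.0326). Within the exercised lineage they were 0.90 and 0.94 (n = 6, exact permutation p = 0.0347 and 0.0167). Within the sedentary lineage they were 0.46 and 0.83 (n = 6, exact permutation p = 0.378 and 0.0583). The p-values of these centred and within-lineage settings are unadjusted. For 3p, r was -0.13 (permutation p = 0.659) and rho -0.014 (permutation p = 0.974). Without those 2 libraries r was -0.10. Library 1 of the exercised lineage had the lowest total of all 12, 6458450.

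**Figure D4:**
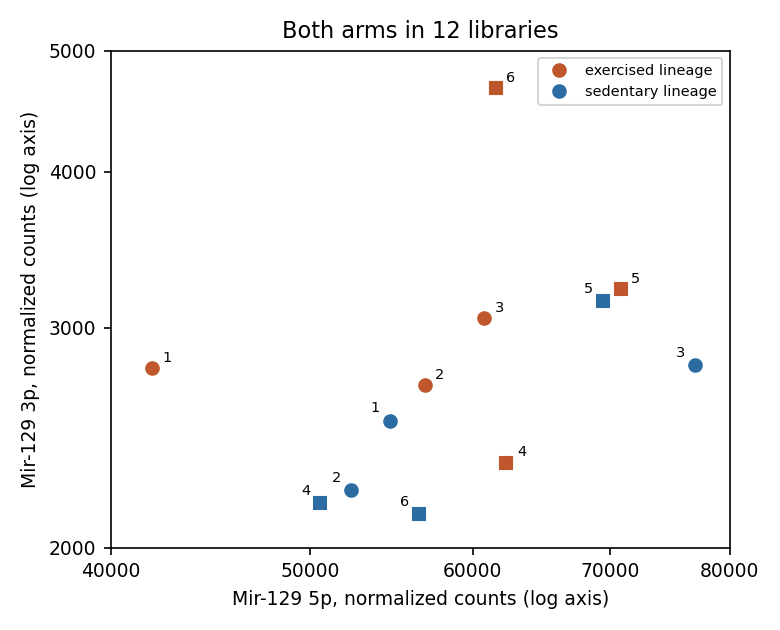
Mir-129 3p against 5p in normalized counts, both on log axes, with 1 point per library labelled with the mouse number (circles R31 and S11, squares R41 and S41). Exercised library 6 has the highest 3p value, exercised library 1 the lowest 5p value and sedentary library 3 the highest 5p value.

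The arms whose log2 values were most like those of each Mir-129 arm over the 12 libraries were taken from 472 other tested rows by Pearson's r, as a description. For 5p they were Mir-30-P1a_3p* (r = 0.90), Mir-30-P1b_3p (0.89) and Mir-139_5p (0.85), where an asterisk is the row names' mark for a passenger arm, whichever arm has the higher value here. Mir-30-P1b_3p stood at 11152 and 10426 normalized counts in the exercised and sedentary lineages. Without exercised library 1 these values of r were 0.82, 0.84 and 0.74. For 3p they were Mir-154-P4_3p* (0.83), Mir-652_3p (0.82) and Mir-376-P3_5p* (0.80). All 3 had their highest value, like Mir-129 3p itself, in library 6 of the exercised lineage, and without it r was 0.66, 0.60 and 0.52. Library 6 was the highest of the 12 libraries for 81 of the 474 tested arms (17.1%). Library 1 was the lowest for 119 arms (25.1%) and the highest for 94 (19.8%). These libraries thus stood at an extreme for many arms besides Mir-129.

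Mir-670, an miRNA annotated within the same host gene as Mir129-2, at chr2:94261300-94261399, was detected near the lower end of the range. Its 3p arm stood at 8.98 to 27.8 normalized counts in the exercised lineage. In the sedentary lineage it was listed at 0 in library 1 and stood at 7.25 to 20.5 in the others. The log2 difference was 0.99 (95% confidence interval -0.37 to 2.35, limma adjusted p = 0.560), over at most 30 reads in a library. Its log2 values had r = -0.16 with the 5p and 0.02 with the 3p arm over the 12 libraries, at a depth where counting error is large.

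Other miRNAs known from synaptic scaling or glutamate receptor control were listed by number (miR-92a, miR-124, miR-134, miR-138, miR-186 and miR-218). Of their 12 tested arms, 7 had a difference above 0 and 5 below, and 0 were called higher or lower. Their median was 0.06 (0.026 to 0.111 with single libraries left out), against 0.00 for all tested arms, of which 49.8% were above 0. Mir-218 5p, encoded in Slit2 and Slit3 introns, stood at 404480 ± 68972 against 403811 ± 62645 normalized counts (log2 difference 0.00, limma adjusted p = 0.998). Mir-124 3p, the main neuronal identity miRNA, stood at 44838 ± 14706 against 33932 ± 8085 (0.38, 95% confidence interval -0.05 to 0.80, limma adjusted p = 0.532). Mir-138 5p, which limits the size of dendritic spines, stood at 9165 ± 1633 against 7819 ± 1322 (0.23, limma adjusted p = 0.532). In the wider list of neuron-enriched miRNAs, 16 of 28 arms were above 0 and 12 below, with 0 called and a median of 0.06 (0.019 to 0.070 with single libraries left out).

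For the ciliary role of the 3p arm, the Mir-34 family is the natural companion, since its members act in multiciliated cells, also on Ccp110. Of its 6 tested arms, 2 were above 0 and 4 below, with 0 called and a median of -0.05, which ran from -0.26 to 0.11 with single libraries left out. The leading arm, Mir-34-P2b_5p, stood at 21449 ± 9313 against 26055 ± 12052 normalized counts (log2 difference -0.25, limma adjusted p = 0.797).

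Markers of other cell types were compared with the Mir-129 values, and in bulk tissue fewer cells of a type cannot be told apart from less RNA per cell. The sums below are weighted to their most abundant arms. In the endothelial and mural sum this was Mir-143 3p, with exercised and sedentary means of 364821 and 389280. For microglia and leukocytes it was Mir-150 5p (1330 and 1372), and among the neuronal arms Mir-9 5p (2056516 and 2131174). Ranks of these sums thus follow such arms more than the lists as a whole. In library 6 of the exercised lineage, with the high 3p arm, the 8 microglia and leukocyte arms summed to 2259 normalized counts, the highest of the 12 libraries. Its 6 endothelial and mural arms summed to 693033, the second highest, and its 12 choroid plexus and ependyma arms to 47664, the tenth. Its oligodendrocyte sum ranked 3rd, its erythroid sum 9th and its sum over Mir-9, Mir-124 and Mir-128 also 9th. In library 1 of the exercised lineage, with the lowest 5p value, the 7 arms of Mir-9, Mir-124 and Mir-128 summed to 1861684, the lowest of the 12. Its total of normalized counts, 6458450, was the lowest too. As a share of counts its 5p arm was 0.649%, the lowest of its lineage. That was above the sedentary median of 0.635% and the lowest share of 0.614%, in sedentary library 1. In exercised library 1 the microglia and leukocyte sum was also the lowest, at 1702. There the oligodendrocyte sum ranked 11th, the erythroid sum 10th and the endothelial and mural sum 9th. Only the choroid plexus and ependyma sum, at 178435, was among the higher ones of these 6 lists, ranking 4th. Over the lineages, the choroid plexus and ependyma sum ran from 47664 to 203211 in exercised-lineage and from 46042 to 199684 in sedentary-lineage libraries. Its medians were 60535 and 113420, with 1 of 12 arms above 0 and 11 below. The median log2 difference of the 12 arms was -0.22, and -0.47 to 0.0036 with single libraries left out. It was 0.25 without the R41 and 0.17 without the S11 libraries, but -0.66 without R31 and -0.61 without S41. The direction thus depended on which stems entered. These arms are not independent, since they include Mir-34-P2 and Mir-34-P3 arms of the multiciliated cell list. They also include both arms of Mir-1298, Mir-204-P1 and Mir-448. The microglia and leukocyte sum ran from 1702 to 2259 and from 1787 to 2221, with 5 of 8 above 0. The endothelial and mural sum ran from 312588 to 693033 and from 339905 to 724817, with 1 of 6 above 0. The erythroid sum, over 5 arms with 1 above 0, ran from 631 to 838 and from 733 to 1219. The oligodendrocyte sum, over 5 arms with 3 above 0, ran from 14078 to 19265 and from 9949 to 20573. In each of these lists 0 arms were called. The part of these cell types in the Mir-129 values was not tested.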

How the data were processed

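Small RNA libraries from 12 hippocampi were made with the miRNeasy and NEBNext small RNA kits, per the labels' protocols, without named molecular identifiers. The deposited values are a signal: read numbers of each arm after scaling by a library's size factor. The tools and build named are Bowtie 1.3.0, DESeq2 and mm10, per the submitters' processing notes. The treatment of mismatches and of reads matching several loci is not given in the sources used here. Although the columns are named raw, their values have decimals. All were whole multiples, within 0.01, of 1 step per library, which was taken as 1 read for depth and intervals. The smallest value stood for 2 to 6 reads. Since the step was inferred and the deposited values are not whole, no count model was fitted.

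Lineages were compared with limma 3.58.1 in R 4.3.3 on log2(value + 1) with a mean-variance trend, over the 474 of 513 arms with a mean of at least 10, with Benjamini-Hochberg adjustment. Values per library were compared by exact permutation over 924 assignments (scipy 1.17.1), and correlations with 100000 resamples. The fit was tested on simulated data. Of 66 library pairs, 0 held identical values, and all differed beyond counting noise. Each library came from its own numbered mouse, but mice with a shared stem may be related. The members, lists and named arms (the 3 most alike per Mir-129 arm and the 3 most abundant per list, a selection of which is printed) were chosen with earlier results of these data known. The list number miR-485 matched no row and was not analysed here. The planned split of the 3p arm by gene was not made, since its row pools both. Alternatives covered scaling, pseudocount, filter, prior, left-out libraries or stems, the replicate number as a block and stem as a random block. Same-numbered mice of the lineages are separate animals.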

Additional observations from a re-analysis of the deposited data

How the results depend on the processing

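Neither Mir-129 arm was called under any of the 26 alternatives run. The 3p difference stayed above 0 in all of them, from 0.18 to 0.41, and passed an unadjusted limma p of 0.05 in 4. Scaling by totals and by upper quartiles were among these, each with 0.39. Relative to the median of all tested arms, the 3p arm stood at 0.30 under both, the same as in the main fit. The 5p difference changed sign in 7. It was 0.062 when scaled by totals and 0.059 by upper quartiles, which moved the median of all tested arms to 0.085 and 0.083 and left the 5p arm at -0.023 relative to it. It was 0.13 without the R31 libraries and 9.22e-05 without the S11 libraries. With single libraries left out it ran from -0.081 to 0.070, above 0 without exercised library 1 or sedentary library 3 or 5. The log2 ratio of 5p to 3p had an unadjusted exact permutation p below 0.05 only without exercised library 4 and, with -0.38, without the R41 libraries. It ran from -0.42 to -0.22 with single libraries left out. The difference in share of counts ran from 0.0159 to 0.0651 percentage points with single libraries left out. The number of tested arms at an unadjusted limma p below 0.05, 34, was 57 under upper-quartile scaling, 17 without exercised library 6, 16 and 19 without the S11 or S41 libraries and 16 with the replicate block. The replicate number as a block gave adjusted limma p of 0.720 for 3p and 0.970 for 5p, and exact sign-flip p of 0.156 for the ratio and 0.375 for the share. The numbers did not pair the samples. Same-numbered libraries had correlations of their deviations from -0.17 to 0.15, and 2 of 12 libraries correlated best with their own number. The stem as a random block, which cannot move a difference in this design, gave adjusted limma p of 0.524 for 3p and 0.973 for 5p. TMM scaling and count models (edgeR and DESeq2), listed beforehand, were not run. The deposited values are not whole, and the step taken as 1 read was inferred and used only for depth, counting intervals and the comparison of library pairs. The effect of depth on the Mir-129 arms was not tested. The 3p difference has an interval that includes both 0 and a 1.5-fold change.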
